A study of Mus musculus with 12 samples.

Results

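SMAD proteins carry the signal of the TGF-β family from receptors at the cell surface to the nucleus, and their corepressors and ubiquitin ligases limit it. The genes followed here are Smad1, Smad2, Smad3, Smad4, Smad5 and Smad7, the corepressors Ski, Skil and Tgif1, and the ubiquitin ligase gene Smurf2. They were taken as a list of 10 gene names in the scanner files, by name and not by a threshold on a measured value, and all their probes were kept. The 10 genes had 21 probes, out of 27597 gene names and 41174 probes on the array. All 21 probes were well above background on all 12 arrays and were tested.

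Transcripts of mouse CD4+ T cells were measured on 12 one-colour Agilent arrays, 3 for each of 4 cultures. All cultures began with naive CD4+CD62L+ T cells of C57BL/6 mice from spleen and lymph nodes, which were activated with antibodies against CD3 and CD28, expanded on day 3 and kept for 5 days. Stimulated Th9 cells were Th9 cultures given anti-CD3 at 1 µg/ml for 6 h on day 5. Th9 cultures were grown in IL-4 (20 ng/ml) and TGF-β (2 ng/ml) with IFN-γ blocked by an antibody, and were given both cytokines again at expansion. Regulatory T cell (Treg) cultures were grown in TGF-β (2 ng/ml) with IL-4 blocked by an antibody, and IL-2 was added when they were expanded. Th2 cultures had the IL-4 and the block of IFN-γ without TGF-β. The labels name no addition to Th2 cultures at expansion, so Th9 and Th2 differed in TGF-β and, as labelled, in the renewal of IL-4, whereas Treg cultures differed from Th2 in TGF-β, in IL-4, in IL-2 and in which cytokine was blocked. Whether arrays of a group stem from different cultures or mice is not in the labels, and p-values here measure the spread between arrays, which may be technical. Each culture is a bulk sample, in which fewer cells of a type and less RNA per cell cannot be told apart.

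The arrays were checked against their labels. Il9 was well above background on all 3 Th9 arrays and on no Th2 or Treg array, and its Th9 level was at least 18.1-fold that of Th2 and at least 19.6-fold that of Treg. With a probe counted as above background by any of its spots, these bounds were 28 and 32.8. Foxp3 was at least 82.3-fold higher in Treg than in Th2, where no array had it well above background. It was also well above background on all 3 Th9 arrays, at least 14-fold over Th2. The Th2 genes Gata3 and Il4 had log2 differences of 0.25 and -1.07 in Th9 against Th2 (limma adjusted p = 0.344 and 0.0892). In Treg against Th2 these were -1.62 and -10.99 (limma adjusted p = 9.14e-06 and 8.71e-09). Il2ra differed by 0.83 in Th9 against Th2 and by -1.11 in Treg against Th2. The 5 T cell markers were above background everywhere. A list of 7 B cell markers had a summed level of 49.1 to 67.9 in Treg cultures, against 0.755 to 6.39 in the other cultures, in units of each array's 75th percentile signal. All 7 were higher in Treg than in Th2 and 6 of 7 were lower in Th9 than in Treg. The sum was 4.84 to 6.39 in Th9 and 2.425 to 4.12 in Th2, and 1 of the 7, Ebf1, was higher in Th9 than in Th2, by 1.66. Of 7 myeloid and dendritic markers, 4 were higher and 2 lower in Treg than in Th2, and 2 were higher and 4 lower in Th9 than in Treg. Lyz2 and Itgam were well above background in Treg cultures and in none of the others, with Lyz2 at least 78.2-fold higher in Treg against Th2 and at least 91.2-fold lower in Th9 against Treg, whereas Adgre1 was 2.87 higher in Th9 against Treg. Of 4 mast cell and basophil markers, Cpa3 was at least 6.25-fold lower in Th9 against Treg, but its Treg and Th2 arrays overlapped. Fcer1a differed by -0.70 in Th9 against Treg and by 0.96 in Treg against Th2. Mcpt8 and Ms4a2 were well above background on no Treg array. The T cell markers summed to 128.9 to 162.1 in Treg and 59.6 to 81.2 in the others. The part of these cells in the Treg results, and in those of Th9 against Th2, was not tested. The 12 arrays lay on 3 slides, and no slide held both Th9 and Th2 or both Th9 and Treg arrays, so each of those comparisons is also one between slides.

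In this pathway TGF-β and activin receptors phosphorylate Smad2 and Smad3, and BMP receptors phosphorylate Smad1 and Smad5. Both kinds bind Smad4 and enter the nucleus. Smad7 is induced by the signal and blocks the receptors, Smurf2 is a ubiquitin ligase that Smad7 brings to them, and Ski, Skil (SnoN) and Tgif1 repress SMAD target genes. In T cells TGF-β is known for inducing Foxp3 and, with IL-4, Il9.

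The probes shown are 1 for each of Skil, Ski, Smurf2 and Tgif1, the probe lying nearest the 5′ end of its RefSeq transcript. The Skil probe is the one whose difference between Treg and Th2 opposed that of the gene's other probe. Coordinates are those of the array design on mm8, and each probe is 60 bases.
Skil, chr3:31308346-31308405, plus strand: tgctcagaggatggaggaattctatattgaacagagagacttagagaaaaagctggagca
Ski, chr4:154003101-154003160, minus strand: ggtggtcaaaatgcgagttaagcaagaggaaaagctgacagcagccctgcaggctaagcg
Smurf2, chr11:106655312-106655371, minus strand: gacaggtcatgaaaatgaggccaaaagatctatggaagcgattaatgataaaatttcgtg
Tgif1, chr17:70749955-70750014, minus strand: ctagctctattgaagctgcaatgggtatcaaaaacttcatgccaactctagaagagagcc

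A level here is log2 of a probe's signal over the 75th percentile of its array, and a difference is between group means of that level. A gene is described by its lead probe, the tested probe of highest mean, and a difference was called where limma's p-value, adjusted over all 27122 probes tested by the Benjamini-Hochberg method, was under 0.05. Values after ± are SD for levels (n = 3 arrays) and SE for differences.

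**Figure D1:**
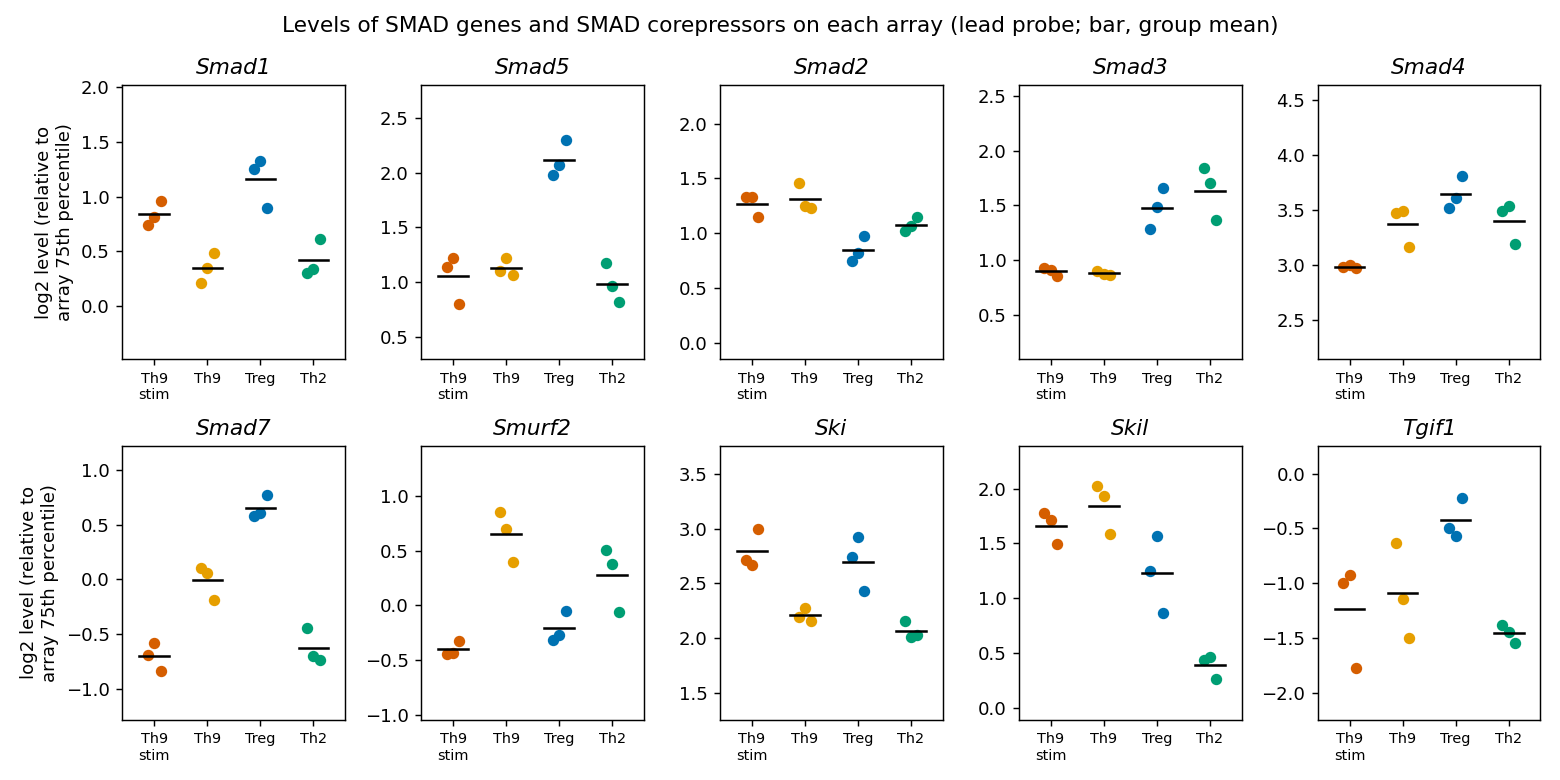
Level of each gene's lead probe on each array, by culture (log2, relative to the array's 75th percentile). Each point is an array and each bar a group mean (n = 3). Skil lay between 1.497 and 2.02 on the stimulated Th9 and Th9 arrays and between 0.26 and 0.46 on the Th2 arrays, and Smad7 was highest in Treg.

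Between Th9 and Th2, 3 of the 10 genes were called, Skil and Smad7 higher and Smad3 lower in Th9. Over all probes tested 16.1% were called, 7.59% higher and 8.54% lower. The median difference of the 10 lead probes was 0.19, against -0.03 over all probes. Groups did not overlap for 5 of the 10 genes, against 38.5% of all probes.

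Skil, which encodes the corepressor SnoN, showed the largest difference of the 10. Its level was 2.02, 1.93 and 1.58 on the Th9 arrays, against 0.44, 0.46 and 0.26 on the Th2 arrays. All Th9 arrays lay above all Th2 arrays, a difference of 1.46 ± 0.18 or 2.74-fold (limma adjusted p = 0.000491). The probe printed above gave the same difference, 1.46 ± 0.15 (limma adjusted p = 0.000129).

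Smad7, the inhibitory SMAD, had levels of 0.10, 0.06 and -0.19 on Th9 arrays, against -0.44, -0.70 and -0.74 on Th2 arrays. The groups did not overlap, and Smad7 was 1.53-fold higher in Th9 (difference 0.62 ± 0.12, limma adjusted p = 0.00828). Smad3, a receptor-activated SMAD of the TGF-β branch, had levels of 0.90, 0.88 and 0.87 on Th9 arrays, against 1.84, 1.70 and 1.36 on Th2 arrays. Every Th9 array lay below every Th2 array, with a difference of -0.75 ± 0.13 (limma adjusted p = 0.00451). All 3 Smad3 probes were called lower, with differences between -0.96 and -0.75.

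The other receptor-activated SMADs did not pass the test between Th9 and Th2. Smad2, of the same branch as Smad3, differed by 0.23 with a 95% interval of -0.01 to 0.47. In the BMP branch the differences were -0.07 for Smad1, with an interval of -0.38 to 0.24, and 0.14 for Smad5, with an interval of -0.18 to 0.46. The shared partner Smad4 differed by -0.03 (interval -0.32 to 0.26). Among the regulators, Ski differed by 0.14 (interval -0.16 to 0.44), Tgif1 by 0.36 (interval -0.19 to 0.92) and Smurf2 by 0.38 (interval 0.01 to 0.74). With slide as a block, which must reach Th9 from Th2 through the other groups, the 3 calls were lost: Skil differed by 1.73 (limma adjusted p = 0.113), Smad7 by 0.71 (0.347) and Smad3 by -0.98 (0.193).

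**Figure D2:**
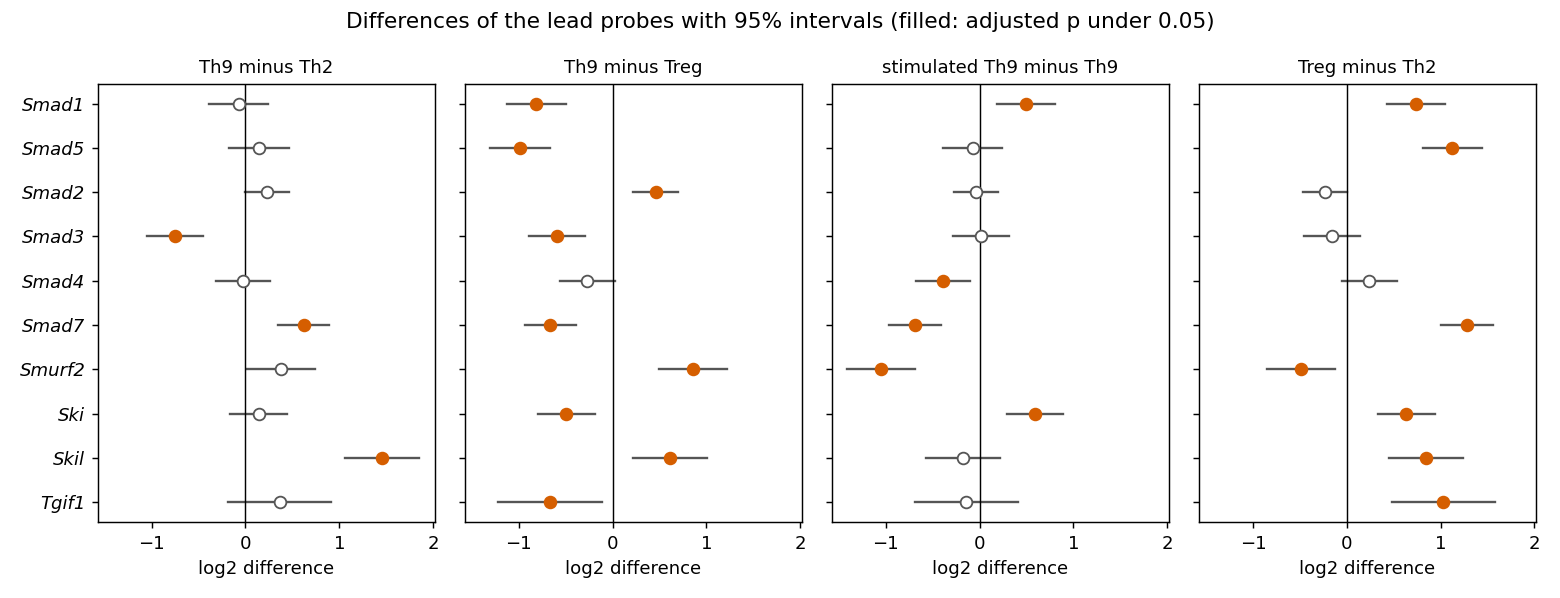
Differences of the 10 lead probes in the 4 comparisons (log2), with 95% intervals. Filled points have a limma adjusted p under 0.05. Between Th9 and Th2 only Skil, Smad7 and Smad3 are filled, among the 10 genes, and between Th9 and Treg 9 are.

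Between Th9 and Treg, 9 of the 10 genes were called, 3 higher and 6 lower in Th9, where 64.4% of all probes were called (29.2% higher and 35.2% lower). The median of the 10 differences was -0.54, against -0.10 over all probes. The groups were apart for 10 of the 10 genes, against 69.2% of all probes. Th9 and Treg cultures differ in IL-4, in IL-2, in which cytokine was blocked and, as labelled, in the renewal of TGF-β at expansion. The B cell and myeloid markers above also differ between them.

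In the BMP branch the lead probes of both genes were lower in Th9. Smad5 had levels of 1.098, 1.22 and 1.07 on Th9 arrays, against 1.98, 2.07 and 2.30 on Treg arrays. The groups were well apart, with a difference of -0.99 ± 0.14 (limma adjusted p = 0.000135). One of its other probes, starting at base 1752, differed by 0.32 ± 0.20 and was not called (0.181). Smad1 differed by -0.81 ± 0.14 (0.000479 by the same test). In the TGF-β branch the genes went opposite ways: Smad2 was 0.46 ± 0.11 higher in Th9 (limma adjusted p = 0.00322) and Smad3 was lower, with a difference of -0.60 ± 0.13 (0.00266). Smad4 differed by -0.27 and was not called (0.0951).

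Among the inhibitors, Smad7 was 0.58, 0.61 and 0.77 on Treg arrays, above all Th9 values given before, a difference of -0.66 ± 0.12 (limma adjusted p = 0.000814). Skil was higher in Th9, by 0.61 ± 0.18 for the lead probe (limma adjusted p = 0.0113) and by 2.11 ± 0.15 for the printed probe (5.87e-07). Ski differed by -0.49 ± 0.14 by its lead probe (limma adjusted p = 0.0087), while its printed probe differed by 0.07 ± 0.25 and was not called (0.831). Tgif1 differed by -0.66 ± 0.25 (0.0366). Smurf2 had levels of 0.85, 0.70 and 0.40 on Th9 arrays, against -0.31, -0.27 and -0.05 on Treg arrays. The groups did not overlap, and all 3 Smurf2 probes were higher in Th9, by 0.86 to 1.38. With slide as a block 4 of the 9 calls stayed, those of Smad1, Smad2, Smad5 and Ski. The calls of Skil, Smad3, Smad7 and Smurf2 were lost, and Tgif1 turned to 0.11 (limma adjusted p = 0.842). Without Th9 replicate 2 or 3, or any one Treg array, the Tgif1 call was also lost, with adjusted p-values of 0.052 to 0.142, and so was it with no filter on dim probes (0.0579).

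After anti-CD3 for 6 h, stimulated Th9 cultures differed from Th9 in 5 of the 10 genes, where 64.7% of all probes were called. Smad1 and Ski were higher and Smad4, Smad7 and Smurf2 lower after stimulation. Of all probes 33.6% were higher and 31.1% lower, and the median of the 10 differences was -0.11, against 0.02 over all. Groups did not overlap for 5 of the 10 genes, against 68.9% of all probes. Of the B cell markers 4 of 7 were lower after stimulation, Cd79b by a difference of -2.60 ± 0.29, and of 4 tested CD8 T and NK cell markers Klrb1c (-3.52 ± 0.35) and Cd8b1 (-1.50 ± 0.45) were lower. The 5 markers of that list summed to 4.31 to 30.5 on stimulated Th9 arrays, against 26.1 to 33.1 on Th9 arrays. Their part in these results was not tested.

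Smurf2 fell most among the lead probes. Its level was -0.44, -0.43 and -0.32 on stimulated Th9 arrays, against 0.85, 0.70 and 0.40 on Th9 arrays. The groups were apart, with a 2.07-fold lower level after stimulation (difference -1.05 ± 0.16, limma adjusted p = 0.000189). One other Smurf2 probe was called lower, at -0.68 ± 0.17 (limma adjusted p = 0.00514). The printed Smurf2 probe, at -0.65 ± 0.28, was not called (0.0632). Smad7 was -0.69, -0.58 and -0.83 on stimulated Th9 arrays, below every Th9 array and overlapping the Th2 arrays. Its difference was -0.69 ± 0.12 (limma adjusted p = 0.000543). Smad4 fell by 0.39 ± 0.13 (limma adjusted p = 0.0224), a call lost without Th9 replicate 1 or 2 or stimulated Th9 replicate 1 and with slide as a block. Its other probe differed by -0.74 ± 0.15 (0.00151).

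Ski had levels of 2.72, 2.67 and 3.00 on stimulated Th9 arrays, against 2.19, 2.28 and 2.16 on Th9 arrays. The groups did not overlap, and all 3 Ski probes were called higher, by 0.59 to 1.28. With quantile normalization the lead probe's difference was 0.35 (limma adjusted p = 0.0577). Smad1 was 0.49 ± 0.14 higher by its lead probe (limma adjusted p = 0.01), and its other probe, at 0.39 ± 0.17, was not called (0.0697). Skil, Tgif1, Smad2, Smad3 and Smad5 were not called by their lead probes, with differences between -0.18 and 0.02. On slide 3, which held all Th9 arrays and stimulated Th9 replicate 3, the differences were -0.97 for Smurf2, -0.82 for Smad7, -0.40 for Smad4, 0.79 for Ski and 0.61 for Smad1.

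Between Treg and Th2, 7 of the 10 genes were called, 6 higher and 1 lower in Treg, where 63.4% of all probes were called (33.5% higher and 29.9% lower). The median of the 10 differences was 0.69, against 0.08 over all probes. Groups did not overlap for 7 of the 10 genes, against 69.8% of all probes. This comparison shares the Th2 arrays with the one between Th9 and Th2, and all 7 B cell markers were higher in Treg here. Smad7 was 2.43-fold higher in Treg, with a difference of 1.28 ± 0.12 (limma adjusted p = 6.89e-06), and the groups were well apart. Smad5 differed by 1.13 ± 0.14 (4.99e-05) and Smad1 by 0.74 ± 0.14 (0.000897). Tgif1, a homeodomain corepressor, was -0.50, -0.57 and -0.22 on Treg arrays, against -1.38, -1.45 and -1.55 on Th2 arrays. All Treg arrays lay above all Th2 arrays, a difference of 1.03 ± 0.25 (limma adjusted p = 0.00401). Ski was 0.63 ± 0.14 higher by its lead probe (limma adjusted p = 0.00194), while its printed probe differed by 0.17 ± 0.25 and was not called (0.57). Smurf2 was lower by its lead probe, at -0.48 ± 0.16 (limma adjusted p = 0.0231), with groups that overlapped, a call lost with slide as a block and without Th2 replicate 1 or 2 or Treg replicate 1 or 2. With normexp background correction it was -0.26 (limma adjusted p = 0.127). Its other 2 probes differed by -1.22 and -1.20. Smad2, Smad3 and Smad4 were not called by their lead probes. On slide 1, which held all Th2 arrays and Treg replicate 1, the differences were 1.21 for Smad7, 0.99 for Smad5 and 0.96 for Tgif1.

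The order of levels, by lead probe, differed between genes. Smad7 was lowest in stimulated Th9 and Th2, a pair that did not pass the test, higher in Th9 and highest in Treg. Smad3 was lowest in stimulated Th9 and Th9 and higher in Treg and Th2, and neither pair passed the test. Another Smad3 probe was called lower in Treg than in Th2, by -0.56 ± 0.18 (limma adjusted p = 0.0201). Skil was lowest in Th2, then Treg, stimulated Th9 and Th9, and the last pair did not pass the test. Ski was highest in stimulated Th9 and Treg, a pair that did not pass the test by the lead probe. Its other probes were called higher in stimulated Th9 than in Treg, by 0.78 ± 0.10 and 0.82 ± 0.25 (limma adjusted p = 2.91e-05 and 0.012).

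Probes of one gene did not always move together. For Skil, the lead probe was 1.25, 1.57 and 0.87 in Treg, against 0.44, 0.46 and 0.26 in Th2, and was called higher (0.84 ± 0.18, limma adjusted p = 0.0018). The printed Skil probe was -1.97, -1.97 and -2.20 in Treg, against -1.33, -1.23 and -1.62 in Th2, and was called lower (-0.66 ± 0.15, limma adjusted p = 0.00242). Neither pair of groups overlapped, so a direction for Skil between Treg and Th2 depends on the probe. The lead probe minus the printed probe was 3.07 to 3.55 on Treg arrays and 1.69 to 1.88 on Th2 arrays.

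For Smad5, the probe starting at base 1752 of the transcript was -1.52, -1.56 and -1.65 in stimulated Th9, against -3.22, -3.27 and -3.45 in Th9. It was called higher after stimulation (1.73 ± 0.20, limma adjusted p = 1.78e-05), where the lead probe differed by -0.08 (0.669). Between Treg and Th2 the same probe was called lower, by -0.55 ± 0.20 (limma adjusted p = 0.0306), where the lead probe and the remaining probe were higher. For Smad3, one probe was called higher after stimulation (0.75 ± 0.18, limma adjusted p = 0.00409), and the other 2 were not called. Which transcripts each probe reads was not tested.

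**Figure D3:**
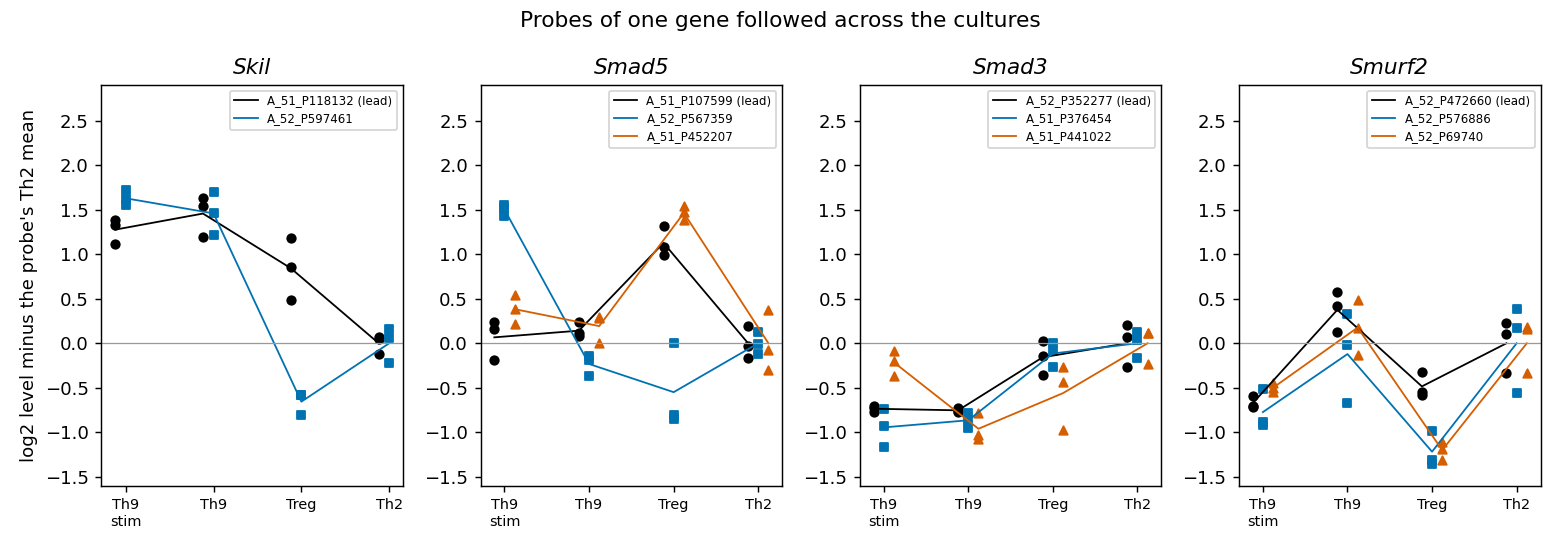
All probes of Skil, Smad5, Smad3 and Smurf2 across the cultures, each set to its own Th2 mean (log2 level minus that mean). Points are arrays and lines join group means. The 2 Skil probes lie together in Th9 and on opposite sides of 0 in Treg, and 1 Smad5 probe is far above the others in stimulated Th9.

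Over the 12 arrays, some genes followed one another. As a description over arrays that share groups and slides, Pearson's r was 0.90 between Smad5 and Smad7, 0.83 between Smad1 and Ski, and -0.83 between Smad1 and Smurf2. Among 11994 other genes, the most like Smad7 were Zfp595, Fam120b and Pik3r1 (r of 0.979 to 0.98), the most like Smad5 were Cd164, Cd52 and Tle4 (0.978 to 0.984), and the most like Skil were Cd83, Adam19 and Pptc7 (0.932 to 0.954). Those most like Smurf2 were Vhl, Prkcd and Me2 (0.979 to 0.981), and those most like Tgif1 were Zfp87, Zfp169 and Gbp2 (0.923 to 0.935).

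Promoters of Smad1 and Ski, which followed each other over the arrays, and of Smurf2, which ran opposite to Smad1, are shown as RefSeq gives them on GRCm38.p6, from 250 bases before the gene's start to 50 after it. They were picked after the values were seen. Capitals mark CAGAC or its reverse complement, a motif bound by Smad3 and Smad4.
Smad1, chr8:79399379-79399678, minus strand: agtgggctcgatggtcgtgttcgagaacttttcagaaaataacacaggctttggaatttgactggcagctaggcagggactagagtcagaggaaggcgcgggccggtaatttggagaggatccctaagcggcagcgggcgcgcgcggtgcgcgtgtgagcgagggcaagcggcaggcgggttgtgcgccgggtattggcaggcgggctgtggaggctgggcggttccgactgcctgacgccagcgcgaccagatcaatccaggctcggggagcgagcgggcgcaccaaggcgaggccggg
Ski, chr4:155222486-155222785, minus strand: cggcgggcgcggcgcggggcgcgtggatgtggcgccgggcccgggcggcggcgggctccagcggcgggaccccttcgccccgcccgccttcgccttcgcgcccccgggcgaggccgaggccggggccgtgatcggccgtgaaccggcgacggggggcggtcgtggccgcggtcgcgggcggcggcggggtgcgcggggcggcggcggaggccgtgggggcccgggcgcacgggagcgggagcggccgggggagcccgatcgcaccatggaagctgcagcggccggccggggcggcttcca
Smurf2, chr11:106920666-106920965, minus strand: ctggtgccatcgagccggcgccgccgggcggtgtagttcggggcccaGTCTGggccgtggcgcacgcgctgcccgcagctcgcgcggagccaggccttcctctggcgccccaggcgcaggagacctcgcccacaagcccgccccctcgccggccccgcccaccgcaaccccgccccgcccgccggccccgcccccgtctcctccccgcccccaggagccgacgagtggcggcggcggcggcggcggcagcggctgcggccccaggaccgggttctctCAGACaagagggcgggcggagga
The motif was found 2 times in the Smurf2 window and not in the windows of Smad1 and Ski. Of all 32851 promoters of this length, 49.6% held it on either strand. GGCGC and GGCCG were also counted on either strand, and all of these windows held both. In that order they occurred 4 and 2 times in the Smad1 window, 7 and 13 times in that of Ski, and 6 and 4 times in that of Smurf2. Of all promoters, 36.9% held GGCGC and 35.2% held GGCCG. The promoter table held 12 promoters for 6 of the 10 genes.

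The rest of the pathway was described from lists of its genes. Their counts stand beside the shares of all probes called: 7.59% higher and 8.54% lower in Th9 against Th2, 29.2% and 35.2% in Th9 against Treg, 33.6% and 31.1% after stimulation, and 33.5% and 29.9% in Treg against Th2. Of 14 tested ligand and receptor genes, 6 were higher and 1 lower in Th9 against Th2, with a median difference of 0.63. The activin receptor gene Acvr2a was 2.40 ± 0.20 higher in Th9, the co-receptor gene Tgfbr3 2.18 ± 0.12 higher and the type I receptor gene Acvrl1 2.17 ± 0.45 higher (limma adjusted p = 3.76e-05, 4.3e-06 and 0.0098). Against Treg, 10 were higher and 1 lower in Th9. After stimulation 2 were higher and 8 lower: Inhba, which encodes an activin subunit, was 5.24 ± 0.42 higher and Tgfb3, a TGF-β ligand gene, fell by 6.86 ± 0.28 (limma adjusted p = 1.47e-06 and 5.76e-08). Between Treg and Th2, 2 were higher and 9 lower.

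Of 27 tested genes for other SMADs and SMAD regulators, 5 were higher and 3 lower in Th9 against Th2. Ldlrad4 and Pmepa1, whose products hold back SMAD activation, were 3.46 ± 0.29 and 1.46 ± 0.11 higher (limma adjusted p = 4.16e-05 and 1.8e-05). After stimulation 10 were higher and 10 lower, shares near those of all probes, and the ubiquitin ligase gene Nedd4l fell by 3.23 ± 0.16 (limma adjusted p = 9.65e-08). The counts were 11 higher and 8 lower in Th9 against Treg, and 9 and 9 in Treg against Th2.

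Of 14 genes known as SMAD targets, 3 were higher and 4 lower in Th9 against Th2, with a median difference of -0.15. Itgae, the integrin gene that TGF-β induces in T cells, was 3.84 ± 0.37 higher (limma adjusted p = 0.000101), Ccn2 was at least 11.9-fold higher (0.000103), and Cdkn2b differed by -2.50 ± 0.31 (0.000563). After stimulation 9 were higher and 2 lower, Gadd45b by 2.34 ± 0.15 (limma adjusted p = 3.22e-07). In Th9 against Treg, 7 were higher and 3 lower, with Id3 at -5.47 ± 0.19 (limma adjusted p = 7.15e-09). In Treg against Th2, 4 were higher and 7 lower.

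**Figure D4:**
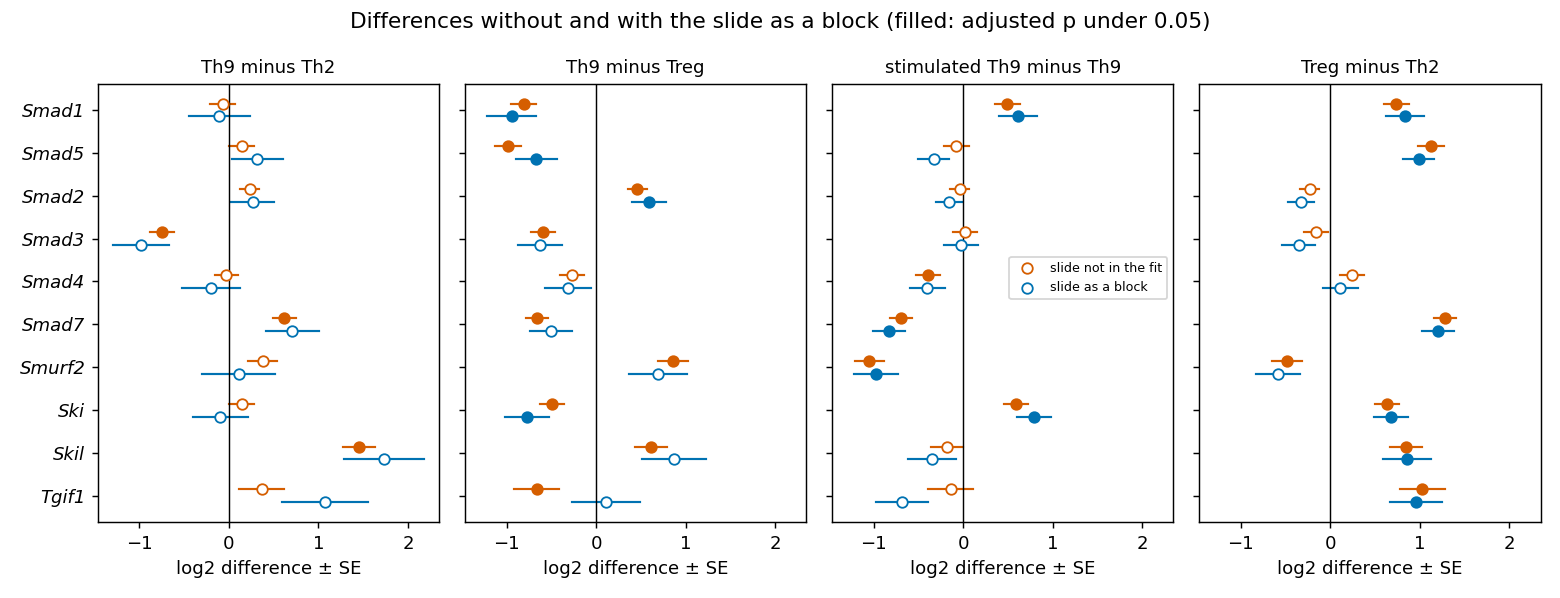
Differences of the lead probes (log2, ± SE) without slide in the fit and with slide as a fixed block. Filled points have a limma adjusted p under 0.05. With the block none of the 10 genes is filled between Th9 and Th2, 4 are between Th9 and Treg, and most bars are wider.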

How the data were processed

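Total RNA (0.5 µg) was labelled and hybridised to one-colour arrays, per the labels' protocols. The authors deposited scanner output with intensity on a linear scale, which, per the file headers, Agilent Feature Extraction (version 10.5.1.1) had background-subtracted and detrended, and a table of log2 values, which are quantile normalized as judged from those values. The 75th percentile of processed signal was 521 to 796, 59.8 to 63.7% of probes per array were above background, and the number of arrays limits the precision. Control and outlier spots (60 to 94 an array) were dropped and spots of a probe averaged. Probes well above background on at least 3 of 12 arrays were tested (27122).

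A probe counted as well above background where all its spots did. The plan did not settle this. Results were first computed with any spot sufficing, and the stricter rule was adopted after those results had been seen, to match earlier processing of these data, which gave the lower bound for Il9. The any-spot rule tested 27143 probes and changed none of the 40 calls of lead probes, and its bounds for Il9 stand beside the others.

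limma 3.58.1 in R 4.3.3 fitted 1 mean per group over 12 arrays, and was tested on simulated data. Genes named from other lists were the 3 called genes of largest difference without overlap, of which some are given. The genes most like a gene were named where its group means spanned at least 1. Genes and lists were chosen with earlier results of these data known. Same-numbered Th9 and Th2 arrays deviated together (r of 0.186, 0.157 and 0.409). The fit reported here did not pair them, and the number entered only as a block in an alternative. In the other comparisons not every r passed 0.1. Alternatives covered background correction, normalization, filter, probe, slide, replicate block and each array left out.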

Additional observations from a re-analysis of the deposited data

How the results depend on the processing

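Over all alternatives, 682 of the values of single genes kept their direction and side of the threshold or stayed uncalled, 29 lost a call, 7 gained one and 6 reversed. The reversals were other probes for Ski in Th9 minus Treg (0.0656), Skil in Treg minus Th2 (-0.66) and Smad5 in Th9 minus Treg (0.32), stimulated Th9 minus Th9 (1.73) and Treg minus Th2 (-0.55), and Tgif1 in Th9 minus Treg with slide as a block (0.11). The slide block left 0 genes of the list called between Th9 and Th2 and 4 between Th9 and Treg, and 388 and 10012 probes, against 4375 and 17466 without it. Its median SE between Th9 and Th2 was 0.38, against 0.17. Slide as a random block changed no call of the 40. The correlation within slides was estimated at -0.013, so that fit was close to the one without slide. It cannot separate slide from culture between Th9 and Th2 or Treg. Leaving out 1 array gave 2522 to 3815 probes between Th9 and Th2, with 2522 without Th9 replicate 2, 2554 without Th2 replicate 2 and 2659 without Th2 replicate 1. It kept 3 genes of the list called there, 8 to 9 between Th9 and Treg, 4 to 5 after stimulation and 6 to 8 between Treg and Th2. With 1 probe per gene, fewer features were tested (17920), and 11470, 11419 and 11243 were called in Th9 minus Treg, stimulated Th9 minus Th9 and Treg minus Th2. With the replicate block 4421 probes were called between Th9 and Th2, and the block changed none of the 40 calls of lead probes. With a probe above background by any spot, an alternative added after seeing the data, 4383 were called there and none of the 40 calls changed.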
